A study of Mus musculus with 24 samples.

Results

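Described here are 9 genes of blood clotting and clot breakdown, read in brain RNA from mice of 2 inbred strains. They were taken by name from a list of plasminogen activators, tissue factor and regulators relevant to stroke, so the rule itself used no measured value. The genes are Plau, Plat, Anxa2, F3, Tfpi, Thbd, Procr, F2r and Vwf, 9 of the 53465 genes in each file. All 9 passed the expression filter, which left 18425 genes for testing. The animals were 6 of CAST/EiJ and 6 of WSB/EiJ, inbred strains founded from wild mice. Tissue, brain, is common to both groups, and the labels name no allele, agent, operation, age or sex. The study examined the strains because the volume of their infarcts differs when the middle cerebral artery is occluded, and the labels do not say whether these animals were operated on. Every animal was sequenced on 2 lanes, whose reads were added. The 12 sums held 32982569 to 46513232 reads in genes.

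Clotting begins when tissue factor, the product of F3, meets factor VII, and leads through factor X to thrombin and fibrin. Tissue factor pathway inhibitor, from Tfpi, blocks the first step. Thrombomodulin, from Thbd, and the endothelial protein C receptor, from Procr, turn thrombin towards activation of the anticoagulant protein C. F2r encodes a receptor that thrombin cleaves on cells, and Vwf the von Willebrand factor that tethers platelets to a damaged vessel. Clots are broken down by plasmin, which tissue plasminogen activator (Plat) and urokinase (Plau) release from plasminogen, and annexin A2 (Anxa2) holds plasminogen and Plat at cell surfaces. In brain, astrocytes are a known source of tissue factor, endothelial cells carry most of the anticoagulant proteins, and neurons make Plat too. Recombinant Plat protein is given to dissolve clots in ischemic stroke.

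Of the 9 genes, 5 were called different between the strains, 2 higher and 3 lower in CAST, where 42.7% of all tested genes were called. A gene is called here when its Benjamini-Hochberg adjusted p over all tested genes is under 0.05 in the quasi-likelihood test of edgeR. Plau and F3 were higher in CAST, a direction called for 21.5% of tested genes. Tfpi, Thbd and Anxa2 were lower, a direction called for 21.2%. Plat, Procr, F2r and Vwf were not called. A count of 5 among 9 is not far from that background, nor from the 39.2% of protein-coding genes called, and says little about the list as a whole. The median log2 fold change of the 9 genes was -0.12, against 0.0046 over all tested genes. CPM ranges of the 6 CAST and the 6 WSB animals were apart for 4 of the 9 genes and for 27.1% of all tested genes.

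Promoter windows from RefSeq (GRCm38.p6) are shown for F3, Tfpi and Anxa2, the called genes for which a window was at hand, since their starts lie at a gene that was higher and at 2 that were lower in CAST. Each runs from 250 bases before to 50 after the annotated start and is the sequence of the reference, not of either strain. Capitals mark TGANTCA (the recognition letters of AP-1), GGGCGG (those of Sp1) and TATAA (an element of the core promoter), read on both strands; the TATAA matches of F3 overlap each other.
F3 (chr3:121723287-121723586, + strand): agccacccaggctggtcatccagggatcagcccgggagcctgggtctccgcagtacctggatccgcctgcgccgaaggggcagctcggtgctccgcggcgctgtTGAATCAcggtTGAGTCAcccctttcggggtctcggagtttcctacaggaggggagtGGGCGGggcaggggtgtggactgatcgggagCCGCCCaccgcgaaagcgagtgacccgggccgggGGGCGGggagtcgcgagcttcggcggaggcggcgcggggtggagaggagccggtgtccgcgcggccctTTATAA
Tfpi (chr2:84476710-84477009, - strand): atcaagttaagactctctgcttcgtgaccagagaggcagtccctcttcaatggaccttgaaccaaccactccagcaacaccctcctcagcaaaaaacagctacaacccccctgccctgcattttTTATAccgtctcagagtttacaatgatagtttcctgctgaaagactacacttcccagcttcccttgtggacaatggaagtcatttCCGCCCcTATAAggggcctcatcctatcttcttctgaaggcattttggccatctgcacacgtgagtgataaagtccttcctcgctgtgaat
Anxa2 (chr9:69453433-69453732, + strand): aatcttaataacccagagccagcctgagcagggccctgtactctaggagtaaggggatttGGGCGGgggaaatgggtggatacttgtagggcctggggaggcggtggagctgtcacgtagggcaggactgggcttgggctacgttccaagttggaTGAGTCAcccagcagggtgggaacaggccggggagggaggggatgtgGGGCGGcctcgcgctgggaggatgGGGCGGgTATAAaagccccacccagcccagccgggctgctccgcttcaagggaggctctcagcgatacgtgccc
Tfpi has a second annotated start, whose window is not printed and held 52.3% G and C, 3 CpG pairs, 0 AP-1, 1 Sp1 and 0 TATAA matches. The F3 window held 70.3% G and C and 32 CpG pairs, the Anxa2 window 63.7% and 13, and the printed Tfpi window 48% and 5. Medians over 32851 windows of the same length were 52.7% and 7. AP-1 letters stood at 2 places in the F3 window, at 1 place in that of Anxa2 and at 0 in that of Tfpi, and 7.81% of all windows hold them. Windows of F2r and Procr, which were not called, held 1 match each, so the letters occurred among genes called higher, called lower and not called. Sp1 letters stood at 3 places in the F3 window, at 3 in that of Anxa2 and at 1 in that of Tfpi, against 35.7% of all windows with any. TATAA is found in 24.9% of all windows. Such a match describes letters and not a bound site.

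Urokinase, a plasminogen activator secreted by migrating cells, was higher in CAST. Plau (chromosome 14, 20836660 to 20843385, + strand, GRCm38) had a lowest, median and highest level of 4.57, 5.84 and 7.48 CPM in CAST, against 2.11, 2.48 and 4.43 CPM in WSB. CPM are counts per 1000000 reads in genes after TMM scaling. The ranges did not overlap, but the gap was small, since WSB_169 and WSB_120 stood at 4.43 and 4.22 CPM while the other 4 WSB animals were at 2.11 to 2.64 CPM. In CAST the highest levels were in CAST_201 and CAST_200. The log2 fold change was 1.01 ± 0.21 (SE; adjusted p = 0.00158 by edgeR), or 2.01-fold. These levels rest on 2259 reads over all 12 animals.

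Tissue plasminogen activator was not called. Plat (chromosome 8, 22757727 to 22782844, + strand) had a lowest, median and highest level of 34.7, 40.8 and 54.8 CPM in CAST, against 26.1, 38.1 and 39.4 CPM in WSB. The ranges overlapped, with the highest level in CAST_142 and the lowest in WSB_169. Its log2 fold change of 0.24 ± 0.12 (SE) had an adjusted p of 0.115 by edgeR. The 95% interval ran from 0.992-fold to 1.41-fold, so a level up to 1.41 times that of WSB lies within the error. Leaving out CAST_142 gave a log2 fold change of 0.15 (adjusted p = 0.238 by edgeR).

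Annexin A2, which binds plasminogen and Plat at the cell surface, was lower in CAST. Anxa2 (chromosome 9, 69453620 to 69491795, + strand) had a lowest, median and highest level of 5.86, 6.42 and 7.05 CPM in CAST, against 7.45, 9.06 and 9.95 CPM in WSB. All CAST animals lay below all WSB animals. The difference in log2 was -0.47 ± 0.08 (SE; adjusted p = 0.000339 by edgeR), or 1.38-fold lower. S100a10, the small protein that pairs with annexin A2 at the membrane, was lower too, at 4.26 ± 0.727 CPM in CAST brains against 11.8 ± 2.26 CPM in WSB brains (mean ± SD of 6 animals each, as in all such pairs that follow). Its log2 fold change was -1.47 ± 0.14 (SE; adjusted p = 1.99e-06 by edgeR). Anxa2 overlaps Gm16144 and Mir3109, and 69.6% of its exon bases lie outside both, whereas the other 8 genes overlap no annotated gene.

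Tissue factor was higher in CAST. F3 (chromosome 3, 121723537 to 121735048, + strand) had a lowest, median and highest level of 38.5, 48.3 and 52.3 CPM in CAST, against 29.8, 35.7 and 38.98 CPM in WSB. The ranges overlapped by 1 animal of each strain, because CAST_200 at 38.5 CPM lay under WSB_120 at 38.98 CPM, while the other 5 CAST animals were above every WSB animal. F3 differed by 0.43 ± 0.08 in log2 (SE; adjusted p = 0.000591 by edgeR), or 1.35-fold. Of 8 tested astrocyte markers, 1 was higher and 1 lower (25% called, beside 42.7% of all tested genes). Gja1, an astrocyte gap junction protein, was higher at 243 ± 19.7 CPM in CAST brains against 176 ± 15.04 CPM in WSB brains, and Aldh1l1, a folate enzyme, was lower at 37.0 ± 1.62 CPM in CAST brains against 44.9 ± 3.15 CPM in WSB brains. Summed over the astrocyte list the level was 4754 to 5747 CPM in CAST and 4438 to 5254 CPM in WSB, ranges that overlap, and Gfap, whose body lies wholly inside other genes, is listed at 0. Most of the astrocyte sum was Slc1a2, not called, at 3654 ± 605 CPM in CAST brains against 3277 ± 296 CPM in WSB brains. The part of these markers in the F3 difference was not tested. In whole tissue, fewer cells of a type and less RNA per cell cannot be told apart.

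**Figure D1:**
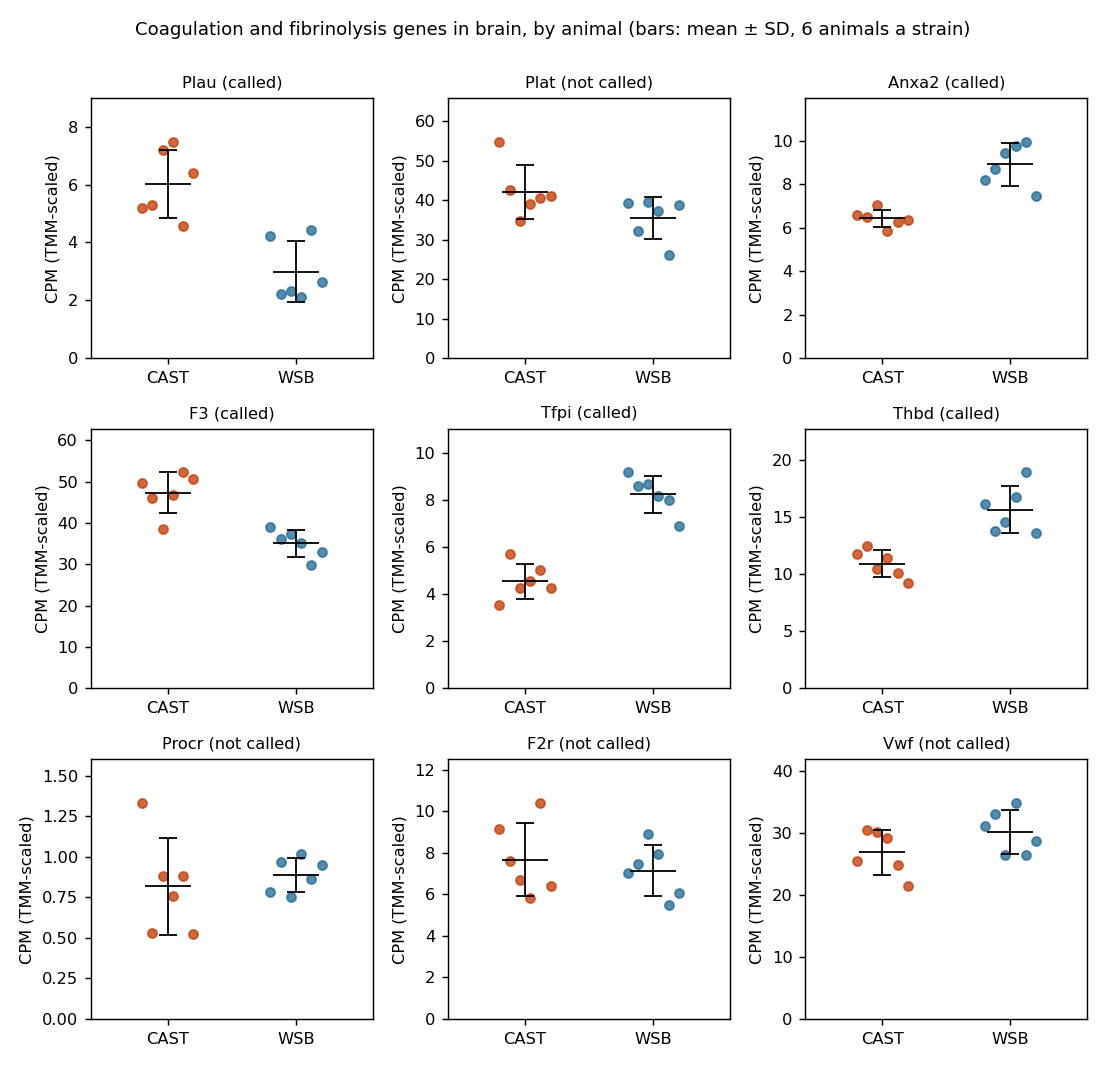
TMM-scaled CPM (vertical axes, linear from 0) of the 9 genes in each of the 12 animals, CAST left and WSB right; points are animals and bars give the mean and SD of 6. All CAST animals lie above all WSB animals for Plau and below them for Tfpi, Thbd and Anxa2, and the ranges of F3, by 1 animal of each strain, and of Plat, Procr, F2r and Vwf overlap.

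Tissue factor pathway inhibitor, which restrains the step that tissue factor starts, was lower in CAST, with the smallest p of the 9 genes. Tfpi (chromosome 2, 84432855 to 84476775, - strand) had a lowest, median and highest level of 3.55, 4.41 and 5.72 CPM in CAST, against 6.88, 8.38 and 9.18 CPM in WSB. No CAST animal reached the lowest WSB animal. Tfpi had a log2 fold change of -0.85 ± 0.11 (SE; adjusted p = 2.78e-05 by edgeR), or 1.81-fold lower. Of 9 tested markers of mural cells, the pericytes and smooth muscle of vessels, 5 were lower in CAST, 0 higher and 4 not called (55.6% called, beside 42.7% of all tested genes). Their summed level was 148 to 176 CPM in CAST and 231 to 258 CPM in WSB. Much of the gap in that sum was Rgs5, a signalling regulator of pericytes, at 45.8 ± 4.03 CPM in CAST brains against 117 ± 9.20 CPM in WSB brains. The smooth muscle markers Acta2 and Myh11, contractile proteins, were not called, with log2 fold changes of 0.34 and 0.03, nor was Cspg4, a pericyte proteoglycan, at 0.22. Sums of endothelial markers, given with Thbd below, overlapped between the strains. The part of either cell type in the Tfpi difference was not tested.

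Thrombomodulin was lower in CAST. Thbd (chromosome 2, 148404466 to 148408188, - strand), a gene of 1 exon, had a lowest, median and highest level of 9.28, 10.9 and 12.5 CPM in CAST, against 13.6, 15.4 and 18.97 CPM in WSB. The strains were apart here as well, with WSB_169 the highest animal. The fitted log2 fold change was -0.52 ± 0.10 (SE; adjusted p = 0.000583 by edgeR), or 1.43-fold lower. Endothelial markers, from the cells known for thrombomodulin, went both ways, 4 higher and 4 lower of 12 tested (66.7% called, beside 42.7% of all tested genes). They summed to 244 to 280.3 CPM in CAST and 247 to 282 CPM in WSB. Among them Pecam1 and Tie1, an adhesion molecule and a receptor of the vessel lining, were higher (log2 fold changes 0.37 and 0.59). Kdr, a receptor of vascular endothelial growth factor, was lower (log2 fold change -0.45). Their part in the Thbd difference was not tested.

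The endothelial protein C receptor had the fewest reads of the 9 genes and was not called. Procr (chromosome 2, 155751117 to 155755471, + strand) had a lowest, median and highest level of 0.521, 0.817 and 1.33 CPM in CAST, against 0.754, 0.905 and 1.02 CPM in WSB. CAST_142 was highest and CAST_203 and CAST_170 lowest, so the CAST range enclosed that of WSB. With a log2 fold change of -0.12 ± 0.22 (SE) its adjusted p was 0.679 by edgeR. The 95% interval ran from 0.665-fold to 1.27-fold on 423 reads in all, so a difference within those bounds was not excluded. The CAST animals varied more, with a coefficient of variation of 36.6% against 11.8% in WSB. Without CAST_142 the log2 fold change was -0.33 ± 0.18 (SE; adjusted p = 0.153 by edgeR).

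The thrombin receptor was not called. F2r (chromosome 13, 95601803 to 95618487, - strand) had a lowest, median and highest level of 5.81, 7.14 and 10.4 CPM in CAST, against 5.48, 7.23 and 8.90 CPM in WSB. The strains overlapped while animals of a strain differed widely, CAST_202 and CAST_142 being highest in CAST and WSB_138 in WSB. F2r had a log2 fold change of 0.10 ± 0.16 (SE; adjusted p = 0.624 by edgeR) and a 95% interval of 0.852-fold to 1.36-fold. F2rl3, the thrombin receptor that signals on mouse platelets, was lower at 0.404 ± 0.0965 CPM in CAST brains against 0.759 ± 0.143 CPM in WSB brains (log2 fold change -0.91 ± 0.19 SE, adjusted p = 0.00145 by edgeR). In F2rl3, 10.9% of the transcript's 32-base words occur in other genes. F2rl2 lies wholly inside other genes and is listed at 0.

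Von Willebrand factor was not called between the strains, while it varied within each. Vwf (chromosome 6, 125546774 to 125686679, + strand) had a lowest, median and highest level of 21.3, 27.3 and 30.4 CPM in CAST, against 26.3, 29.9 and 34.8 CPM in WSB. Its log2 fold change was -0.16 ± 0.10 (SE; adjusted p = 0.202 by edgeR), with a 95% interval of 0.771-fold to 1.03-fold. In CAST, Vwf was at 30.4, 30.1 and 29.2 CPM in CAST_170, CAST_200 and CAST_201, and at 25.4, 24.7 and 21.3 CPM in CAST_142, CAST_202 and CAST_203. In WSB it was at 31.1, 33.0 and 34.8 CPM in WSB_120, WSB_135 and WSB_147, and at 26.5, 26.3 and 28.7 CPM in WSB_138, WSB_169 and WSB_100. In each strain the first 3 animals named were above the other 3.

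The same animals stood apart in reads of the Y chromosome. Summed over Ddx3y, Kdm5d, Eif2s3y and Uty, the first 3 animals of each strain had 0.162 to 9.79 CPM and the other 3 had 223 to 266 CPM. Among the low animals, CAST_170, WSB_120 and WSB_147 were at 7.70 to 9.79 CPM, and CAST_200, CAST_201 and WSB_135 at 0.162 to 0.736 CPM. The labels give no sex, and no test was made between sets that the data defined, though a covariate used below carries the same split. Among 14903 protein-coding genes, the one whose pattern was most like that of Vwf was Eif2s3x, an X-linked translation factor gene that escapes X inactivation (Pearson r = 0.95 of strain-centred log2 CPM over 12 animals). Kdm5c and Kdm6a, X-linked histone demethylase genes that also escape it, came next (r = 0.92 and r = 0.89). Because the animals form clusters, r describes the clusters and not a graded relation, and 35.5% of the 32-base words of Eif2s3x occur in other genes. With the summed Y-linked CPM as a covariate beside strain, a setting chosen after the values were seen, Vwf was called lower in CAST (log2 fold change -0.17 ± 0.05 SE, adjusted p = 0.0262 by edgeR). The calls of the other 8 genes were the same with it.

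The same search named a gene for each of the other 8, and each r is a description over 12 animals, chosen as the highest among the 14903 genes. Tfpi went with Rgs5 (r = 0.90), which was itself lower in CAST by a log2 fold change of -1.36. Plau went with Fmnl1, an actin-organising formin (r = 0.97), at 93.5 to 142.33 CPM in CAST and 88.3 to 136 CPM in WSB. Fmnl1 was high in WSB_120 and WSB_169, the WSB animals in which Plau was high, and was not called between the strains (adjusted p = 0.349 by edgeR). F2r went with Sparc, a secreted matrix protein (r = 0.97), at 146.73 to 381 CPM in CAST and 136 to 329 CPM in WSB. Plat went with Dnase1l1 (r = 0.92), F3 with Zfp189 (r = 0.91), Thbd with Mrps18b (r = 0.91), Anxa2 with L3mbtl2 (r = 0.94) and Procr with Slc46a3 (r = 0.89). Procr and Slc46a3 had r = 0.98 within CAST and r = -0.04 within WSB. Without CAST_142 and WSB_100, Eif2s3x was again nearest to Vwf (r = 0.96), while another gene was nearest to each of the other 8.

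**Figure D2:**
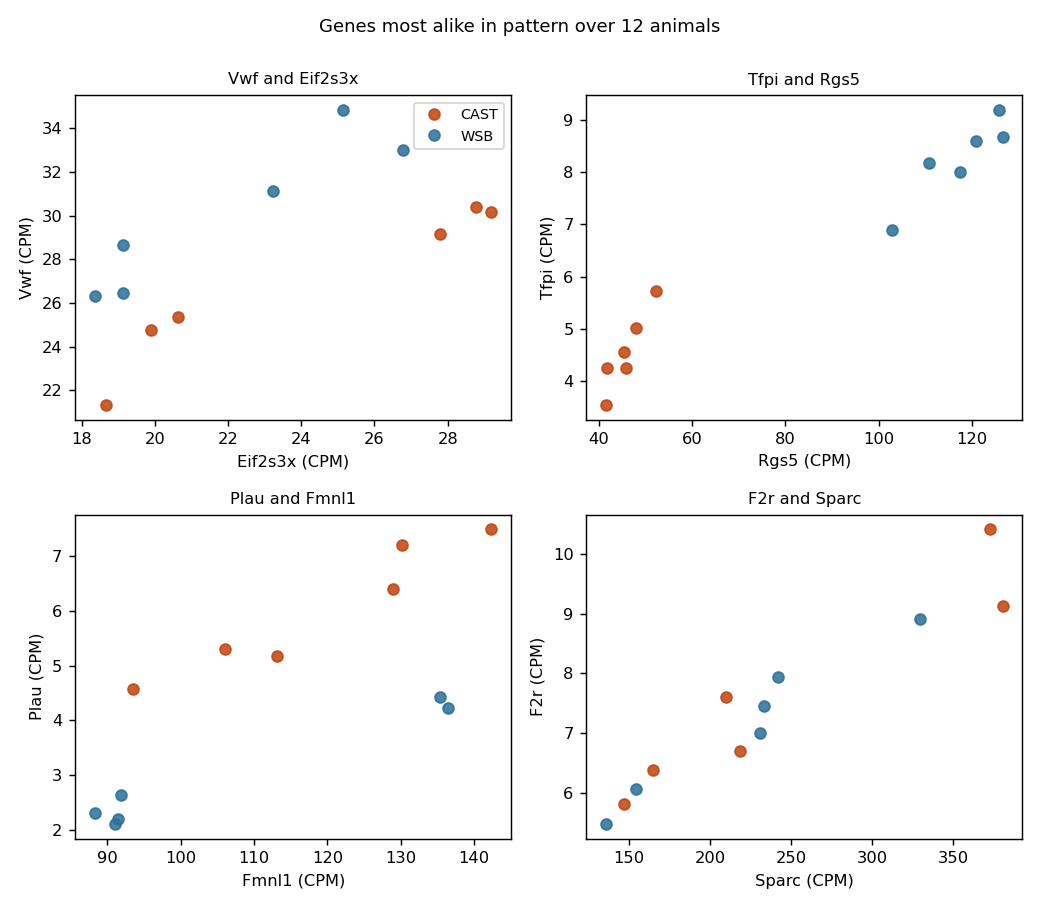
CPM of Vwf, Tfpi, Plau and F2r (vertical axes) against CPM of the gene most like each in pattern (horizontal axes), 1 point an animal, coloured by strain. Vwf and Eif2s3x form 2 clusters of 3 animals in each strain, Tfpi and Rgs5 are both lower in all 6 CAST animals, every CAST animal has more Plau than any WSB animal, and F2r is high where Sparc is high in both strains.

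Levels of different genes were compared per length, as mean CPM per kb of exon. In CAST, F3 was at 18.7 ± 1.96, Plat at 6.74 ± 1.09, Thbd at 2.94 ± 0.320, Plau at 2.54 ± 0.500 and F2r at 2.30 ± 0.531 CPM per kb of exon (SD, n = 6). Below them in CAST came Anxa2 at 1.72 ± 0.105, Vwf at 1.67 ± 0.226, Tfpi at 0.834 ± 0.136 and Procr at 0.402 ± 0.147 CPM per kb of exon. Neighbours from Thbd down to Vwf in this order were no farther apart than the sum of their SDs. In WSB, F3 was at 13.9 ± 1.30, Plat at 5.70 ± 0.858, Thbd at 4.21 ± 0.553, Anxa2 at 2.39 ± 0.262 and F2r at 2.14 ± 0.374 CPM per kb of exon. Below them in WSB came Vwf at 1.87 ± 0.218, Tfpi at 1.51 ± 0.144, Plau at 1.26 ± 0.445 and Procr at 0.437 ± 0.0518 CPM per kb of exon. Here the neighbours Anxa2 and F2r, F2r and Vwf, and Tfpi and Plau were no farther apart than the sum of their SDs. Per kb of exon, Plau thus held rank 4 of 9 in CAST and rank 8 in WSB. Since the counts may hold reads from introns, levels were also set per kb of the whole gene. On that scale F3 was at 4.11 ± 0.430 in CAST and 3.05 ± 0.285 in WSB. Thbd, which has no intron, was at 2.94 ± 0.320 in CAST and 4.21 ± 0.553 in WSB. Plau was at 0.894 ± 0.176 in CAST and 0.444 ± 0.157 in WSB, rank 4 of 9 in both strains. The places of Thbd and Plau thus depend on the length used.

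**Figure D3:**
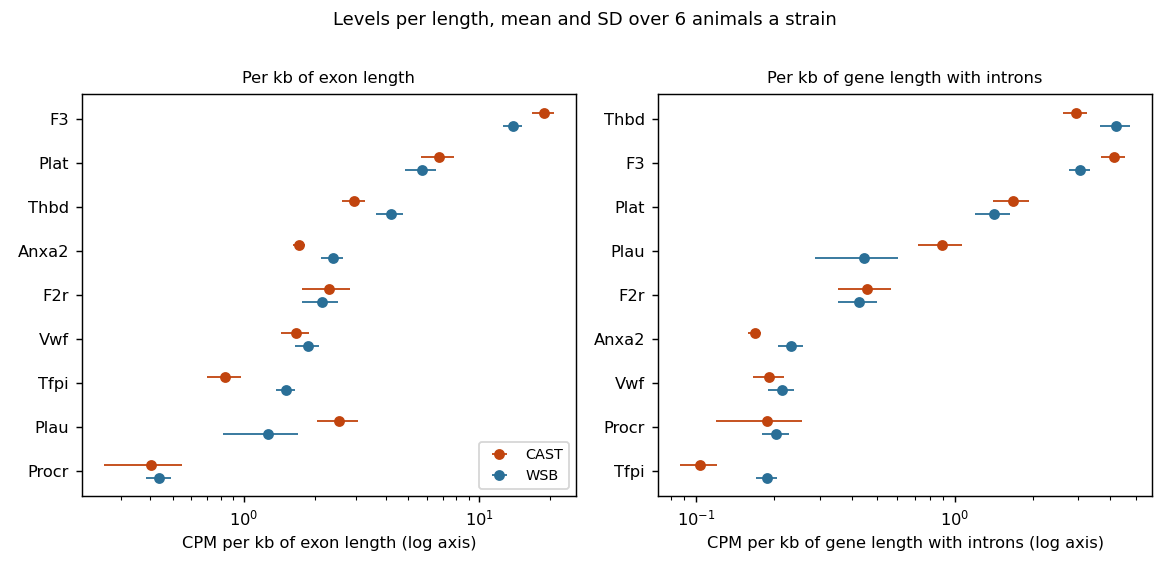
Mean CPM per kb of exon (left) and per kb of gene with introns (right) on log axes, bars giving the SD of 6 animals, CAST above WSB for each gene. F3 leads per kb of exon in both strains, whereas per kb of whole gene F3 leads in CAST and Thbd in WSB.

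Around the 9 genes, 67 genes of clotting and clot breakdown, the 9 included, stand on 6 lists, and 44 were tested. Of these, 10 were higher and 14 lower in CAST and 20 were not called, or 54.5% called beside the 42.7% of all tested genes. Their median log2 fold change was -0.01, and their strain ranges were apart for 15 of 44, beside 27.1% of all tested genes. Of all tested genes, 21.5% were called higher in CAST and 21.2% lower. The lists that follow hold few tested genes each, and no set test was made. Of the 23 genes that were not tested, 20 had at most 10 reads in any animal. Among those were the fibrinogen chain genes Fga, Fgb and Fgg, which the liver makes for plasma, with at most 3, 1 and 1 reads in any animal.

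In the plasminogen activation list 1 of 7 tested genes, Plau, was called, or 14.3% beside 42.7% of all tested genes. The list's median log2 fold change was 0.09. Serpine2, protease nexin-1, was not called at 129 ± 14.5 CPM in CAST brains against 129 ± 12.2 CPM in WSB brains. Serpini1, neuroserpin, the neuronal inhibitor of Plat, was not called either, at 239.9 ± 22.1 CPM in CAST brains against 225 ± 26.5 CPM in WSB brains. The most abundant gene of the list, Lrp1, a receptor that clears Plat and its inhibitor complexes, was not called at 965 ± 50.5 CPM in CAST brains against 991 ± 27.3 CPM in WSB brains.

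The list of plasmin and clot breakdown held 9 tested genes, 2 higher and 5 lower in CAST, with a median log2 fold change of -0.28. That is 77.8% called, beside 42.7% of all tested genes. Plg, the plasminogen gene, had 28 to 50 reads in each CAST animal and 2 to 5 in each WSB animal, or 0.869 ± 0.255 CPM in CAST brains against 0.0780 ± 0.0228 CPM in WSB brains (log2 fold change 3.41 ± 0.27 SE, adjusted p = 2.5e-07 by edgeR). This is a faint level, and 10.6% of the 32-base words of its transcripts occur in other genes. A2m, a broad protease trap, was higher (log2 fold change 1.81 ± 0.47 SE, adjusted p = 0.00656 by edgeR), but CAST_142 stood at 33.98 CPM and the other CAST animals at no more than 11.5 CPM. Without CAST_142 and WSB_100 the log2 fold change of A2m was 1.04 (adjusted p = 0.00664 by edgeR). Plgrkt, a membrane receptor of plasminogen, was lower at 25.9 ± 1.30 CPM in CAST brains against 31.5 ± 1.47 CPM in WSB brains, as were S100a10 and Anxa2. The most abundant gene of the list, Eno1, a glycolytic enzyme that can bind plasminogen, was not called at 51.3 ± 4.08 CPM in CAST brains against 49.8 ± 0.787 CPM in WSB brains. In Eno1, 28.4% of the 32-base words occur in other genes.

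In the clotting cascade list 4 of 9 tested genes were higher and 0 lower in CAST (44.4% called, near the 42.7% of all tested genes, median log2 fold change 0.17). Beside F3 these were F9, clotting factor IX, at 0.551 ± 0.194 CPM in CAST brains against 0.260 ± 0.0744 CPM in WSB brains, and a pair of genes of the vitamin K cycle on which clotting factors depend. Ggcx, the vitamin K-dependent carboxylase, was higher by 0.17 ± 0.06 in log2 (SE; adjusted p = 0.0287 by edgeR), a call lost without WSB_120, WSB_135 or WSB_138 and with lane 6 alone (adjusted p up to 0.0891). Vkorc1, the vitamin K reductase, has 19.4% of its exon bases outside other genes, and 46.0% of its 32-base words occur in other genes. Its call (adjusted p = 0.0342 by edgeR) was lost in 8 of 21 alternatives. The most abundant gene, P4hb, a protein disulfide isomerase, was not called at 94.0 ± 2.70 CPM in CAST brains against 96.3 ± 3.34 CPM in WSB brains.

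Of the anticoagulants 5 of 8 tested genes were lower and 2 higher in CAST (87.5% called, beside 42.7% of all tested genes, median log2 fold change -0.50). Lower beside Tfpi and Thbd was Proz, protein Z, a cofactor in the inhibition of factor X, at 5.87 ± 0.609 CPM in CAST brains against 8.22 ± 0.868 CPM in WSB brains. Serpina10, the inhibitor that protein Z assists, was lower at 0.582 ± 0.0605 CPM in CAST brains against 0.902 ± 0.147 CPM in WSB brains, and Serpinc1, antithrombin, at 0.835 ± 0.119 CPM in CAST brains against 1.20 ± 0.214 CPM in WSB brains. Both of those calls were lost with lane 6 alone. Gas6, a vitamin K-dependent ligand related to protein S and the most abundant gene of the list, was higher at 86.8 ± 4.29 CPM in CAST brains against 68.6 ± 6.17 CPM in WSB brains, with 63.5% of its exon bases outside other genes. Pros1, protein S, a cofactor of activated protein C, was higher too (log2 fold change 0.26 ± 0.07 SE, adjusted p = 0.0136 by edgeR), a call lost with lane 5 alone.

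In the list of von Willebrand factor and platelet adhesion, 3 of 9 tested genes were lower and 1 higher in CAST. That is 44.4% called, near the 42.7% of all tested genes, while the list's median log2 fold change was 0.16. On the list of thrombin receptors, F2rl3 was the called gene of 2 tested. Gp1ba, the platelet receptor chain that binds von Willebrand factor, was lower at 0.498 ± 0.197 CPM in CAST brains against 1.82 ± 0.197 CPM in WSB brains (log2 fold change -1.86 ± 0.22 SE, adjusted p = 1.24e-05 by edgeR). Adamts13, the protease that trims von Willebrand factor, was lower at 0.417 ± 0.120 CPM in CAST brains against 0.980 ± 0.183 CPM in WSB brains (log2 fold change -1.24 ± 0.20 SE, adjusted p = 0.000225 by edgeR). Gp1bb was lower as well, but 91.4% of its transcript words occur in other genes and 8.86% of its exon bases lie outside them, so its count is uncertain. Itga2b, a platelet integrin chain, was higher (adjusted p = 0.0460 by edgeR), a call lost in 12 of 21 alternatives. Blood cell markers were higher at 3 and lower at 0 of 6 tested genes (50% called, beside 42.7% of all tested genes). Their summed level was 47.2 to 183 CPM in CAST and 36.4 to 92.0 CPM in WSB, and their part in these differences was not tested.

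**Figure D4:**
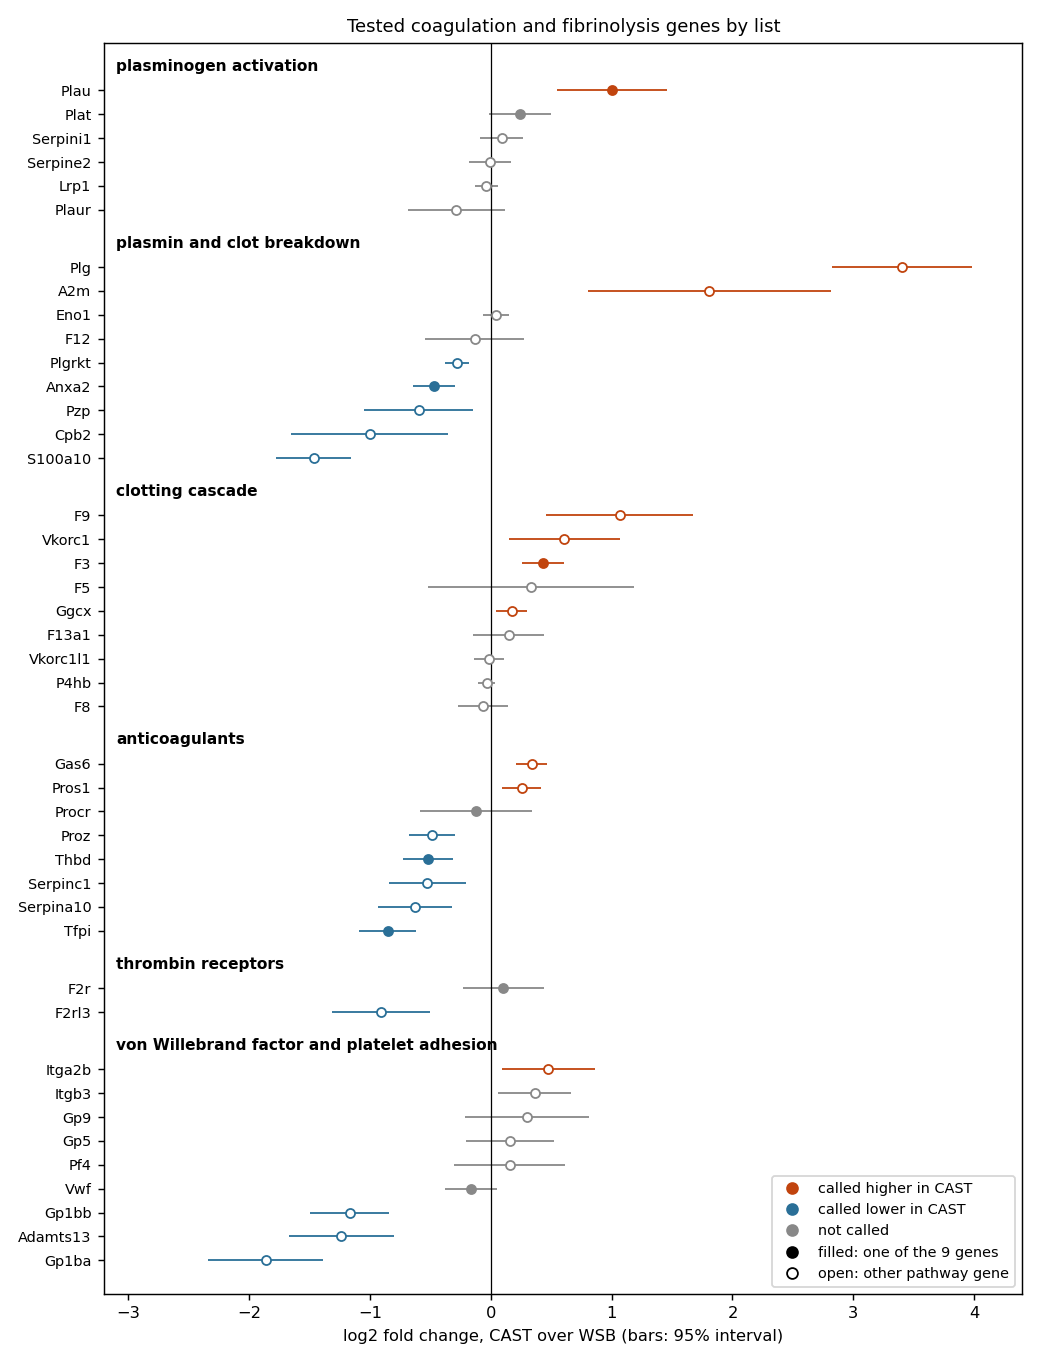
Log2 fold changes (horizontal axis, CAST over WSB) of 43 tested genes by list, with 95% intervals; filled points are the 9 genes, open points the other genes, and colour marks genes called higher, called lower or not called. Plg and A2m lie farthest to the right and Gp1ba and S100a10 farthest to the left, and of the plasminogen activation genes drawn Plau alone has an interval clear of 0.

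CAST_142 stood apart from the other animals, with a summed level of cerebellar neuron markers of 2006 CPM against at most 207 CPM in any other, and of striatal markers of 335 CPM against at least 835 CPM. WSB_100 had the lowest choroid plexus sum, 57.2 CPM, and the lowest oligodendrocyte sum, 2086 CPM. Without both animals all 5 calls among the 9 genes stood, with log2 fold changes of 1.01 for Plau, 0.40 for F3, -0.53 for Anxa2, -0.58 for Thbd and -0.84 for Tfpi. Neuron markers, which bear on the label brain, summed to 6741 to 7729.5 CPM in CAST and 7534 to 8649.6 CPM in WSB, with 0 higher and 0 lower of 8. Counts of called markers here stand beside the 42.7% of all tested genes that were called. Of the other lists, microglia markers were higher at 1 and lower at 3 of 7 tested genes (139 to 236 CPM in CAST and 215 to 237 CPM in WSB). The 139 CPM was in CAST_142, and the next lowest CAST animal, CAST_202, was at 207 CPM. Leptomeningeal markers were higher at 1 and lower at 2 of 8 (57.3 to 105 CPM in CAST and 79.6 to 115 CPM in WSB). Cerebellar markers were higher at 3 of 5 (131 to 2006 CPM in CAST and 121 to 176 CPM in WSB). The 2006 CPM was in CAST_142, and the strain ranges were apart for 0 of these 5 genes. Oligodendrocyte and striatal markers were called at 0 of 6 and 0 of 7. Choroid plexus markers were lower at 1 of 8 (141.99 to 544 CPM in CAST and 57.2 to 737 CPM in WSB). Most of the choroid plexus sum was Ttr, not called, at 336 ± 134 CPM in CAST brains against 392 ± 243 CPM in WSB brains. The lanes split the reads of each of the 9 genes about as counting error would, with a chi-square per degree of freedom of 0.492 to 1.88.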

How the data were processed

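The authors deposited raw read counts per gene, not normalized, in 1 file per lane for 12 animals. Per the submitters' processing notes the tools were cutadapt, TopHat2 2.1.1, HTSeq and DESeq2, without their roles; build, annotation and strand setting: not given in the sources used here. Left out of library sizes and tests were the 5 counters that name no gene. In genes fell 62.9% to 68.0% of counted reads, in several features 11.1% to 16.5%. Alignments that were not unique made up 15.6% to 16.1% in CAST and 17.0% to 17.5% in WSB, so the strains were apart there. Whether differences of either strain from the reference sequence changed the counts of a gene, the called ones included, was not tested. GENCODE M21 (GRCm38) gave symbols, lengths and coordinates for 53360 of the 53465 identifiers.

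Of 1285 protein-coding genes with a body wholly inside other genes, 1271 are listed at 0, against 1986 of 12040 wholly outside. Overlapping genes therefore lose reads, introns may be counted, and antisense reads cannot be told apart.

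Lane counts were added per animal. CAST was set over WSB with the robust quasi-likelihood test of edgeR 4.0.16 (R 4.3.3), with TMM scaling, filterByExpr and strain as the only term, after a run on simulated data. The standard error is the log2 fold change over the square root of F. Likeness was computed on log2 CPM (prior count 2). Alternatives were other scalings, DESeq2 1.42.0, no filter, single lanes, animals left out and a Y-linked covariate. Shared 32-base words made up 0% to 1.83% of the 9 genes' transcripts. Animals are separate by their labels' numbers, and p-values weigh the difference of the strains against the estimated spread between animals.

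Named were the 9 genes, the called genes of each list with the smallest p (up to 4), its most abundant gene, and the gene nearest in pattern to each of the 9. A2m, Serpine2, Serpini1, Serpina10, Serpinc1, Pros1, Gja1, Aldh1l1, Pecam1, Tie1, Kdr, Acta2, Myh11, Cspg4, Slc1a2, Ttr and the genes at or near 0 were named after their values were seen. A tested gene of the lists is counted but not reported here. The 9 genes and the lists were chosen with earlier results of these data known.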

Additional observations from a re-analysis of the deposited data

Results flagged for a closer look

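The 34 genes named by the rule and 14 genes named after their values were seen were searched per strain for a single animal far from the other 5, by Dixon's ratio at its 95% critical value. Genes at or near 0, those of the Y chromosome, Kdm5c, Kdm6a, Slc1a2 and Ttr were not searched. That picked out 10 of 96 sets of 6 animals, and 0 of the 18 sets of the 9 clotting and fibrinolysis genes. Chance would flag about 1 in 20 independent sets, a rate that does not apply to genes picked on their values or to sets that share an animal that stands apart. In 5 sets the animal was CAST_142. It was the highest CAST animal for A2m (33.98 CPM, next 11.5 CPM), Lrp1 (1066 CPM, next 955 CPM), Ggcx (33.4 CPM, next 27.7 CPM) and Dnase1l1 (3.14 CPM, next 2.45 CPM). It was the lowest for Pros1 (8.79 CPM, next 11.1 CPM).

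The other 5 sets involved 4 animals. CAST_203 was the highest CAST animal for Proz (7.06 CPM, next 5.94 CPM). WSB_169 was the highest WSB animal for Mrps18b (10.1 CPM, next 8.52 CPM) and WSB_120 for Aldh1l1 (50.8 CPM, next 44.8 CPM). WSB_100 was the lowest WSB animal for Tie1 (7.04 CPM, next 8.76 CPM) and Kdr (15.9 CPM, next 18.9 CPM).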

How the results depend on the processing

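Plau, F3, Tfpi, Thbd and Anxa2 kept their direction and their call in all 21 alternatives, with adjusted p of at most 0.00460 for Plau, 0.00246 for F3, 0.000157 for Tfpi, 0.00194 for Thbd and 0.00198 for Anxa2. Plat, Procr and F2r were called in 0 of the 21. Vwf was called in 1, with Y-linked reads as a covariate (log2 fold change -0.17, adjusted p = 0.0262 by edgeR), a setting chosen after the values were seen. In the rest its adjusted p was up to 0.386.

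With 1 animal left out at a time, log2 fold changes were 0.92 to 1.15 for Plau, 0.39 to 0.49 for F3, -0.93 to -0.79 for Tfpi, -0.56 to -0.46 for Thbd, -0.52 to -0.44 for Anxa2, 0.15 to 0.30 for Plat, -0.33 to -0.02 for Procr, 0.0027 to 0.17 for F2r and -0.20 to -0.10 for Vwf. Pathway genes called higher numbered 8 to 11 and lower 13 to 14, and all genes called 7313 to 8726. With a single lane, which has fewer reads, 6 pathway genes were called higher with lane 5 and 7 with lane 6, against 10 with both lanes. Over all 21 alternatives the genes called numbered 6567 to 9066.

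No paired analysis was possible because the strains share no animal number. Procr has the fewest reads, 423 over 12 animals.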
